A study of Mus musculus with 16 samples.

Results

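The chaperones and protein disulfide isomerases of the endoplasmic reticulum (ER) fold secreted and membrane proteins, check their sugar chains and form their disulfide bonds. A set of 32 mouse genes for these proteins was followed in perfused liver across all 8 groups of the study. Members were found by symbol, as every probe set that the array's annotation gave to exactly 1 of the 32 symbols or to an older or newer synonym (Ero1l is now Ero1a, and Ero1lb is now Ero1b). This gave 67 of the 45101 probe sets, with at least 1 for each gene. Each gene was described by its probe set with the highest mean, and all 32 passed the filter on low signals, among 12148 genes tested. The lowest signal of any of these 32 probe sets on any array was 30.3, above the highest signal of the absent spike-in control, 15.1.

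The livers came from wild-type mice (Perk+/+) and from Alb/Cre Perk-/- littermates, all 3 to 6 months old. Perk (gene symbol Eif2ak3) is an ER stress kinase that slows protein synthesis by phosphorylating eIF2 alpha, and the albumin promoter drives Cre in hepatocytes, so that other liver cells keep the gene. Livers were perfused without or with tBuHQ, a di-tert-butylhydroquinone that blocks calcium uptake into the ER (the labels name different isomers, and the sources used here give neither dose nor duration). The sample labels list CaCl2 at 0.1 mM for all 16 arrays, untreated and tBuHQ alike. RNA was taken from whole liver extract (unfractionated) or from the polysome fractions of a sucrose gradient, which hold mRNA carrying several ribosomes, and RNA of 2 livers was pooled for each array. Genotype, treatment and fraction together gave 8 groups of 2 arrays: untreated and tBuHQ-perfused, wild-type and knockout, each as unfractionated and as polysome RNA. Values are signal intensities on a linear scale, and differences are on the log2(signal + 16) scale, which understates those of dim genes. Each difference is given with the standard error (SE) of limma's fit to all 16 arrays. Calls were made where the p adjusted over all 12148 genes lay under 0.05, and p-values measure the spread between pools of 2 livers.

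Unfolded proteins or loss of calcium in the ER draw the chaperone BiP (Hspa5) away from the sensors PERK, IRE1 (Ern1) and ATF6, and the response that follows is called the unfolded protein response. Cleaved ATF6 and spliced XBP1 enter the nucleus and bind the ER stress response element of chaperone promoters together with the factor NF-Y, while PERK acts on translation and through ATF4. Hepatocytes secrete most plasma proteins and are rich in ER, so chaperones and disulfide isomerases are abundant there even without stress.

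The promoters of some of these genes hold a known stress element. The choice by symbol did not use it, but the element was defined on promoters of ER chaperone genes, Hspa5 among them. Matches in such genes were therefore in part known beforehand, and the shares are not independent of how the element was defined. The shares below are descriptions and not a test. RefSeq promoter windows of build GRCm38.p6, 250 bases before to 50 bases after the start of each gene, were held for 27 of the 32 genes. The ER stress response element (ERSE), CCAAT and CCACG with 9 bases of any kind between them, was searched on both strands. It was found in 8 of these 27 windows, against 37 of 27025 windows of all genes (0.137%). The shorter ERSE-II, ATTGG and CCACG with 1 base between them, was found in 1 of the 27 (Dnajb11) and in 0.0444% of all genes, and the XBP1 and ATF6 motif UPRE, TGACGTGG, in 2 (Txndc11 and Txndc5) and in 0.714%. The matches are shown because they are the letters through which the chaperone response is known to act. Capitals mark the motif with 10 bases on each side, and each window is written 5′ to 3′ on its gene's strand, so that a match on the opposite strand starts with CGTGG.
Hspa5: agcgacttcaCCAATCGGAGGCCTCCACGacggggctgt
Hsp90b1, distal: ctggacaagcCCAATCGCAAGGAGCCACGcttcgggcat
Hsp90b1, proximal: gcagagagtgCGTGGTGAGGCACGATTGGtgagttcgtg
Dnajc3: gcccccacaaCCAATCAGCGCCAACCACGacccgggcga
Calr: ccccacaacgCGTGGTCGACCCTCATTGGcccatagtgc
Canx: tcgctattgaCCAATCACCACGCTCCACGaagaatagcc
Pdia6: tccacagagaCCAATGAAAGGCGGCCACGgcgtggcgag
Ero1lb: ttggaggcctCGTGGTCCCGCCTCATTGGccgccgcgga
Creld2: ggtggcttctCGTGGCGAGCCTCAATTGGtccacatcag
Dnajb11, ERSE-II: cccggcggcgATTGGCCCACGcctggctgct
Txndc11, UPRE: gaagtgtggcTGACGTGGagagtccggg
Txndc5, UPRE: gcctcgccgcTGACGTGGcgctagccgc

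The window of Hspa5 lies at chr2:34771840-34772139 on the plus strand, and the match starts 65 bases before the gene's start. It is printed whole because Hspa5 encodes BiP, and the capitals again mark the exact match to the ERSE. Only exact matches were searched, so copies of the element with changed letters are not marked.
Hspa5 promoter: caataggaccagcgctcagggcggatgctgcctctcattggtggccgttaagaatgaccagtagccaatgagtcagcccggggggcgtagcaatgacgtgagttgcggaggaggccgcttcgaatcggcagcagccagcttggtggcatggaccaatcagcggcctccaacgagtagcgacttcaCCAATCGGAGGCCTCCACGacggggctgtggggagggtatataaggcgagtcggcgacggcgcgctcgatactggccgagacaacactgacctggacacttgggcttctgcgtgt
The window of Creld2, the gene with the largest tBuHQ difference among the 32 in wild-type unfractionated RNA, lies at chr15:88819396-88819695 on the plus strand and holds its match 126 bases before the start.
Creld2 promoter: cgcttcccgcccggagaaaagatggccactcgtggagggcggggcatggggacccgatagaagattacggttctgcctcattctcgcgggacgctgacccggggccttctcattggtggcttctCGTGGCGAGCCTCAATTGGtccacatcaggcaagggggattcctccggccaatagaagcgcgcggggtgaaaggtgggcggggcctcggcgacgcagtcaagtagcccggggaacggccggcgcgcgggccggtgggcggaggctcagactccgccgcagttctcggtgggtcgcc
These matches are descriptions of the letters, and binding was not measured.

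Several facts of the arrays touch the results. Eif2ak3 was lower in the knockout, with signals of 26.3 to 49.2 against 46.1 to 215.8 in the wild-type. Over both treatments and fractions the difference was -1.31 ± 0.17 (limma adjusted p = 0.0103, exact permutation p = 0.000311). Both tests took the 16 arrays as independent, which does not hold if arrays of the fractions share pools. The authors also deposited a table of z scores, and by value each of its 16 columns matched an array of the same genotype and fraction but, by title, of the other treatment. For 4 columns, those that matched the untreated polysome arrays, the replicate number differed from the title as well. Treatment was taken from the sample titles, and by the column names of that table the direction of every tBuHQ difference below would turn and the untreated and tBuHQ groups would change places in every other comparison. Both untreated wild-type unfractionated arrays and the first knockout tBuHQ unfractionated array stood apart from the other 5 unfractionated arrays, with correlations of 0.973 to 0.975 among the 3 and 0.948 to 0.964 with the others. Their 75th percentile of signal was also higher, at 105 to 114 against 83.7 to 88.9 on the other 5. The 3′ to 5′ signal ratio of Gapdh was 5.60 on 1 polysome array, the second of the wild-type with tBuHQ, against 0.735 to 0.859 elsewhere. The summed signal of 13 pancreatic acinar markers was 3364 to 4872 on 4 arrays, the first of wild-type tBuHQ and of untreated knockout in each fraction, and 160 to 407 on the other 12. The hepatocyte gene Alb had signals of 13480 to 23400 on all 16 arrays.

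In 2 of the 8 groups at least 28 of the 32 genes differed in the same direction between the 2 arrays of the group. On the second wild-type tBuHQ unfractionated array 31 of the 32 were higher than on the first, by a median of 0.68, while over all genes the median was -0.02 and 48.5% were higher. Hspa5 had 4981 and 9414 there, Manf 3010 and 6652, and Sdf2l1, a stress-induced partner of ER J-proteins, 306 and 918. Txndc11 was the gene that went the other way, with 84.4 and 65.3. In knockout livers with tBuHQ the second unfractionated array was lower for 28 of the 32, by a median of 0.50, against 0.05 over all genes, and the 4 exceptions were Fkbp2, Fkbp11, Erp29 and Sil1. In the other 6 groups the second array was higher for 15 to 24 of the 32. The count of 24 was in untreated wild-type polysome RNA, with a median of 0.24 against -0.01 over all genes. The split was 16 of 32 in wild-type polysome RNA with tBuHQ, with a median of 0.0006 and a range of -1.82 to 1.02.

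**Figure D1:**
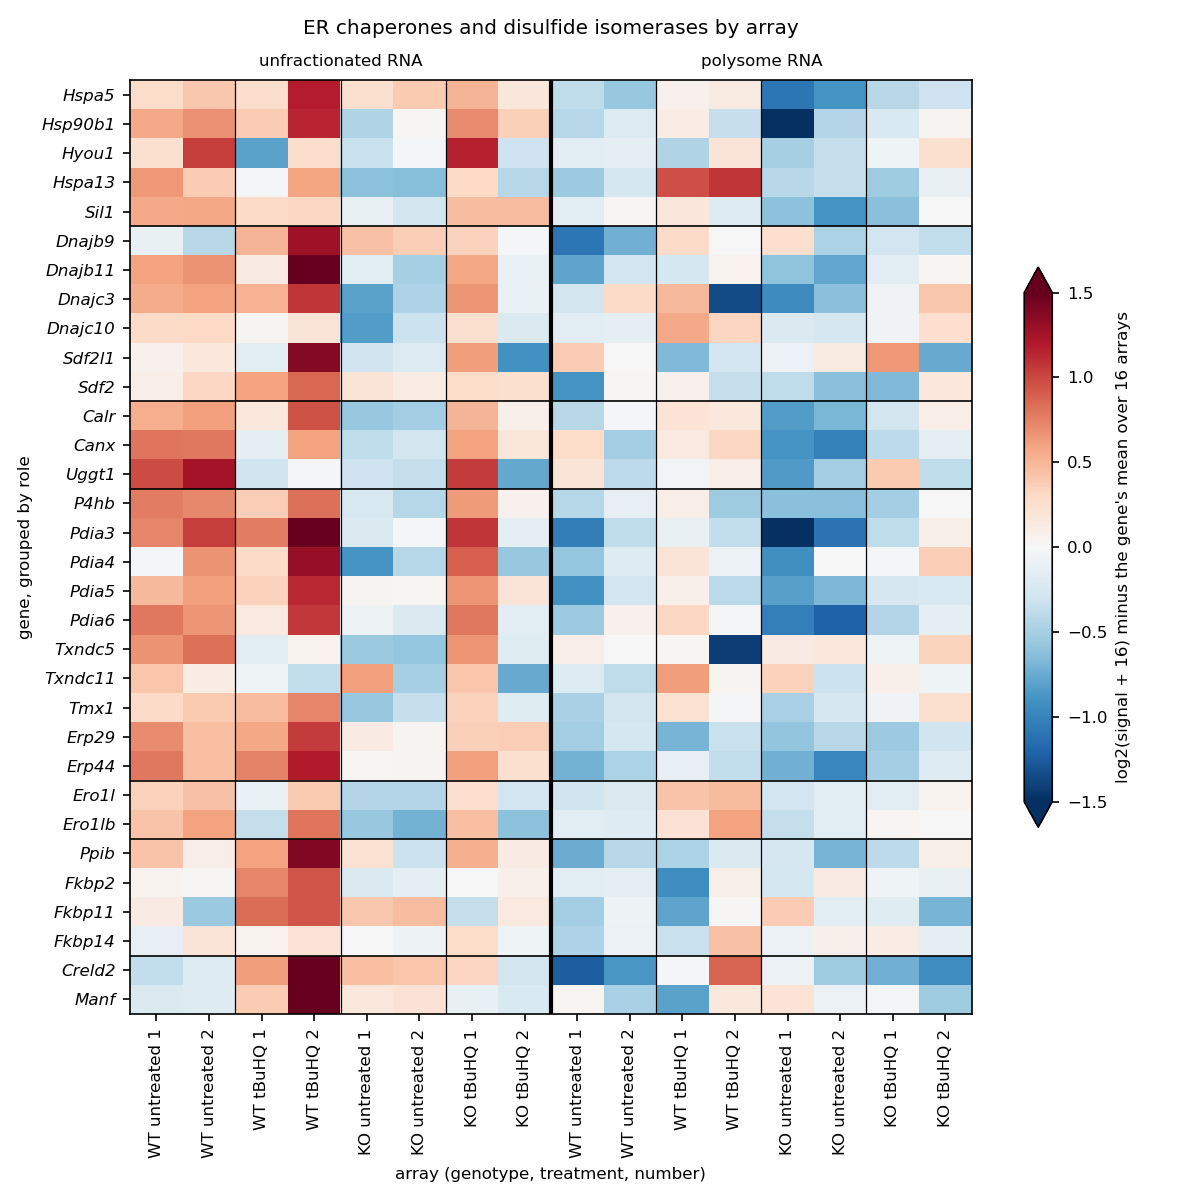
Level of each of the 32 genes (rows, grouped by role) on each of the 16 arrays (columns), as log2(signal + 16) minus the gene's mean over the arrays, from -1.5 (blue) to 1.5 (red). The second wild-type tBuHQ unfractionated array is red for most genes, and the untreated polysome columns are mostly blue. With tBuHQ the polysome medians over the 32 genes are 0.07 and 0.01 in the wild-type and -0.21 and -0.04 in the knockout. The untreated knockout unfractionated arrays have medians of -0.21 and -0.24.

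In wild-type unfractionated RNA, tBuHQ went with higher Creld2 and Dnajb9, and the other 30 of the 32 genes did not pass the test. When all 20975 probe sets were tested, 2 member probe sets were called higher and 1 lower. Of all genes, 0.403% were called higher and 3.86% lower in that comparison (4.26% in all), and 8 members had an unadjusted p under 0.05 against 20.3% of all genes. Over the 32 genes the median difference was 0.20 (all genes -0.03), with 19 above and 13 below 0, and without the second tBuHQ array the median was -0.23. In these bulk samples, fewer cells of a type and less RNA per cell cannot be told apart.

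Creld2, which encodes an ER-resident and secreted stress protein with disulfide-exchange activity, had signals of 296 and 338 without tBuHQ and 608 and 2345 with it. Both tBuHQ arrays lay above both untreated arrays, but the tBuHQ arrays differed from each other more than the first did from the untreated ones. The difference was 1.87 ± 0.46 (3.65-fold, limma adjusted p = 0.0377). Without the second tBuHQ array it was 0.91 with an adjusted p of 0.264, and the call was also lost without either untreated array (0.168 and 0.246).

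Dnajb9 (ERdj4), a J-domain co-chaperone that returns BiP to IRE1 and so restrains it, had 958 and 771 without tBuHQ and 1479 and 2517 with it. Its arrays did not overlap, and the difference was 1.15 ± 0.30 (2.22-fold, limma adjusted p = 0.0422). The call was lost whichever of the 4 arrays was left out, with adjusted p-values of 0.0859 to 0.314.

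With the called genes included, the arrays of the groups did not overlap for 8 genes that lay above and 6 that lay below, where 26.9% and 31.5% of all genes lay so. Manf, a secreted ER stress protein that binds BiP, had 1977 and 2016 without tBuHQ and 3010 and 6652 with it (1.16 ± 0.35, limma adjusted p = 0.0764). Fkbp11, an ER prolyl isomerase of secretory cells, had 246 and 147 without and 414 and 445 with tBuHQ (1.11 ± 0.33, adjusted p = 0.0724). Uggt1, the sensor that adds glucose back to misfolded glycoproteins, had 289 and 352 without and 110 and 138 with it (-1.27 ± 0.44, adjusted p = 0.113). Txndc5, a disulfide isomerase with several thioredoxin domains, had 568 and 634 without and 309 and 365 with it (-0.81 ± 0.38, adjusted p = 0.241).

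The core chaperones were spread by the second tBuHQ array. Hspa5 (BiP) had 5039 and 5518 without tBuHQ, 4981 and 9414 with it, and a difference of 0.38 ± 0.25 (limma adjusted p = 0.421). Hsp90b1 (GRP94), the ER member of the HSP90 family, had 5003 and 5440 without and 4394 and 7497 with it (0.14 ± 0.38). For both, the first tBuHQ array lay below the untreated arrays and the second well above them. Hyou1, a large HSP70 relative that exchanges BiP's nucleotide, had a difference of -0.90 ± 0.44 with overlapping arrays. The 10 disulfide isomerases and relatives had differences from -0.81 (Txndc5) to 0.47 (Pdia4), and none passed. The lectin chaperones Calr (calreticulin) and Canx (calnexin), which hold newly made glycoproteins, had -0.02 and -0.56, and the prolyl isomerases Ppib (cyclophilin B) and Fkbp2 had 0.73 and 0.80.

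Other genes of the pathway were called in both directions. Of 12 sensors and transcription factors, Ddit3 (CHOP) rose (1.57 ± 0.33, limma adjusted p = 0.0214), and Ern1 (-1.78 ± 0.38, adjusted p = 0.0232) and Atf6 (-1.48 ± 0.35, adjusted p = 0.0335) fell. Atf4 had 0.70 (adjusted p = 0.137), Xbp1 0.33 (0.585) and Herpud1, an ER-associated degradation protein, 0.92 (0.109). Of 44 tested genes of translocation, glycosylation and degradation, Edem3 fell (-1.45) and none rose. Of 20 cytosolic and mitochondrial heat shock chaperones, Hspa8 rose (0.88). Of 23 plasma proteins, Apoc3 rose (0.63) and Itih1 fell (-1.08). Beside these, 4 of 8 stellate cell markers, 2 of 11 endothelial, 1 of 12 macrophage (Csf1r) and 1 of 10 hepatocyte markers (Hnf4a) were called lower. The pancreatic marker sum was 220 and 177 on the untreated arrays and 4872 and 407 on the tBuHQ arrays. Creld2 was called without the 4 arrays of high pancreatic sums (2.83 ± 0.34, adjusted p = 0.013), where the tBuHQ group kept only its second array, and Dnajb9 was not (1.53 ± 0.32, adjusted p = 0.1). The part of the other cell types' markers in these differences was not tested.

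In knockout unfractionated RNA no member passed the test with limma, and no gene of the 12148 did (0%). At an unadjusted p under 0.05 there were 7 members, where 8.33% of all genes lay. The median difference was 0.46 (all genes 0.00), with 27 of 32 above 0 and 17 with both tBuHQ arrays above both untreated ones (21% of all genes). Calr had 1892 and 1954 without tBuHQ and 4025 and 2978 with it (0.84 ± 0.26, limma adjusted p = 0.384). Dnajc3 (P58IPK), a co-chaperone that also inhibits eIF2 alpha kinases, had 921 and 1168 without and 2550 and 1503 with it (0.91 ± 0.44). Hsp90b1 had 2471 and 3433 without and 5546 and 4340 with it (0.75 ± 0.38), and Txndc5 234 and 229 without and 566 and 307 with it (0.81 ± 0.38). The first tBuHQ array, 1 of the 3 that stood apart, held the higher value for each of these 4 genes. Without it the median of the 32 genes was 0.16, and without the second tBuHQ array 0.81. Creld2, Dnajb9, Manf and Fkbp11 lay below 0 here (-0.41, -0.24, -0.36 and -0.53).

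**Figure D2:**
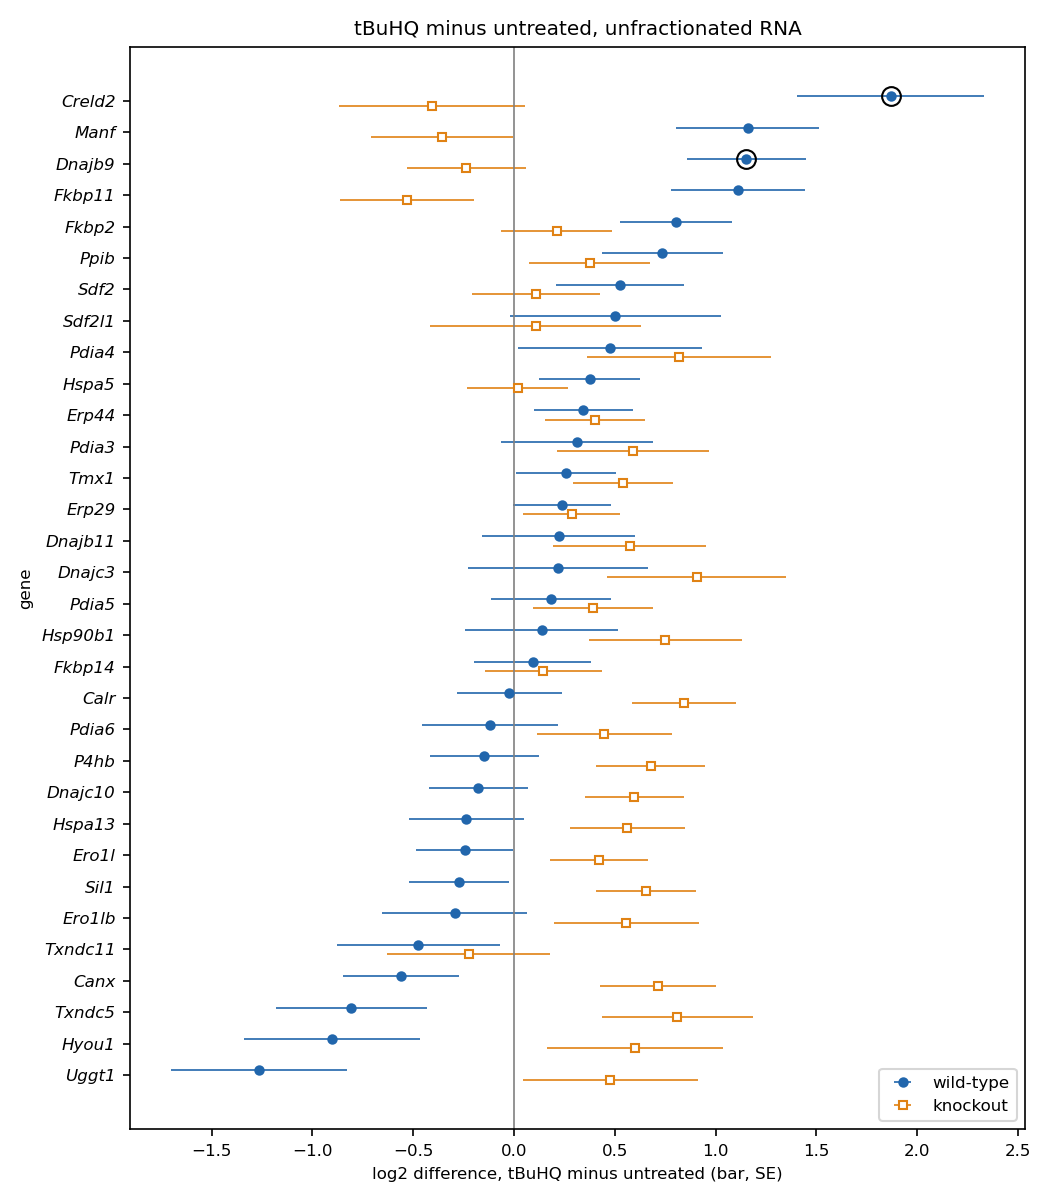
Log2 difference between tBuHQ and untreated livers in unfractionated RNA for the 32 genes, with its SE, in wild-type (filled circles) and knockout (open squares), and black rings on the 2 called genes. Creld2, Manf, Dnajb9 and Fkbp11 lie at 1.11 to 1.87 in the wild-type and below 0 in the knockout, and most chaperones and disulfide isomerases lie higher in the knockout.

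The difference of the tBuHQ effect between genotypes was itself tested, and no member passed with limma, where 5.31% of all genes did (4.89% with a higher effect in the knockout). At an unadjusted p under 0.05 there were 12 of the 32, where 22% of all genes lay. The members nearest to the threshold went in both directions. Knockout minus wild-type effect was -2.28 ± 0.66 for Creld2 (limma adjusted p = 0.0569), -1.64 ± 0.47 for Fkbp11 (0.0559), -1.39 ± 0.42 for Dnajb9 (0.0648) and -1.52 ± 0.50 for Manf (0.089). It was 1.28 ± 0.41 for Canx (0.0815), 1.62 ± 0.53 for Txndc5 (0.0879) and 1.75 ± 0.62 for Uggt1 (0.112). Other probe sets of some genes passed when all 20975 probe sets were tested: 1 each of Canx (2.18, adjusted p = 0.0125), Hyou1 (2.73, 0.0259) and Uggt1 (2.55, 0.0451). Without the second knockout tBuHQ array 4 members were called (Hyou1, Uggt1, Txndc5 and Fkbp11). That omission leaves the knockout tBuHQ array that stood apart, with 306 for Uggt1 and 566 for Txndc5 against 75.4 and 307 on the other. The 3 arrays that stood apart all enter this difference with the same sign, and their part in it was not tested. Without the first wild-type tBuHQ array Creld2 was called (-3.24, adjusted p = 0.0327). In polysome RNA the lowest adjusted p of this difference among the members was 0.963, and 4 had an unadjusted p under 0.05 against 5.09% of all genes.

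In polysome RNA no member passed the tBuHQ test in either genotype, where 0.0165% of all genes were called in the wild-type and 0% in the knockout. At an unadjusted p under 0.05 there were 6 members in the wild-type and 7 in the knockout, against 9.43% and 5.78% of all genes. Hspa13, an ER-associated HSP70 family ATPase, had 154 and 191 without tBuHQ and 468 and 507 with it in the wild-type (1.42 ± 0.29, limma adjusted p = 0.193), and 170, 179, 155 and 214 on the 4 knockout arrays, in the order untreated, then tBuHQ. Creld2 had 155 and 204 without and 379 and 722 with tBuHQ in the wild-type (1.48 ± 0.46), and Dnajb9 480 and 623 without and 1263 and 1041 with it (1.05 ± 0.30). The wild-type polysome arrays did not overlap for any of these 3 genes. Of the 32 genes, 14 lay so above and 1 below, where 21.3% and 11.6% of all genes did. Ero1l, an oxidase that passes disulfides to the isomerases, had 96.9 and 104 without and 171 and 177 with tBuHQ in the wild-type (0.71 ± 0.24). Hspa5 had 3193 and 2798 without and 4354 and 4561 with it (0.57 ± 0.25, adjusted p = 0.489).

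In knockout polysome RNA the members with the largest differences were disulfide isomerases and chaperones. Pdia3 (ERp57), the isomerase that works with calnexin and calreticulin, had 476 and 662 without tBuHQ and 1101 and 1537 with it (1.19 ± 0.38, limma adjusted p = 0.581). Hsp90b1 had 884 and 2486 without and 2871 and 3470 with it (1.08 ± 0.38). Dnajc3 had 832 and 1038 without and 1554 and 2144 with it (0.96 ± 0.44), and Pdia6 637 and 560 without and 969 and 1194 with it (0.83 ± 0.34). These groups did not overlap, nor did those of 17 of the 32 genes with both tBuHQ arrays above (20.4% of all genes). Without the first wild-type tBuHQ polysome array, Hspa13 (1.48, adjusted p = 0.031) and Txndc5 (-1.47, adjusted p = 0.0217) were called in the wild-type, on the array of high Gapdh ratio alone. The medians of the 32 genes were 0.35 in the wild-type and 0.35 in the knockout, against 0.05 and -0.01 over all genes. Over both genotypes and fractions the median was 0.32 (all genes 0.00), 28 of 32 lay above 0, and none passed with limma (0.0494% of all genes called, 16 members at an unadjusted p under 0.05 against 9.32%). Calr was nearest (0.47 ± 0.13, adjusted p = 0.176).

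The tBuHQ effect was also compared between fractions. No member passed the test in the wild-type, where 0.107% of all genes were called, or in the knockout, where none was. At an unadjusted p under 0.05 there were 8 members in the wild-type and 0 in the knockout, against 17.7% and 2.97% of all genes. Hspa13 was nearest in the wild-type, with polysome minus unfractionated effect of 1.66 ± 0.40 (limma adjusted p = 0.0832). It passed without the first wild-type tBuHQ polysome array (1.71, adjusted p = 0.0481), which leaves the array with the high Gapdh ratio. Fkbp2 (-1.58, adjusted p = 0.0266) and Manf (-1.74, adjusted p = 0.0489) passed without that second array.

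**Figure D3:**
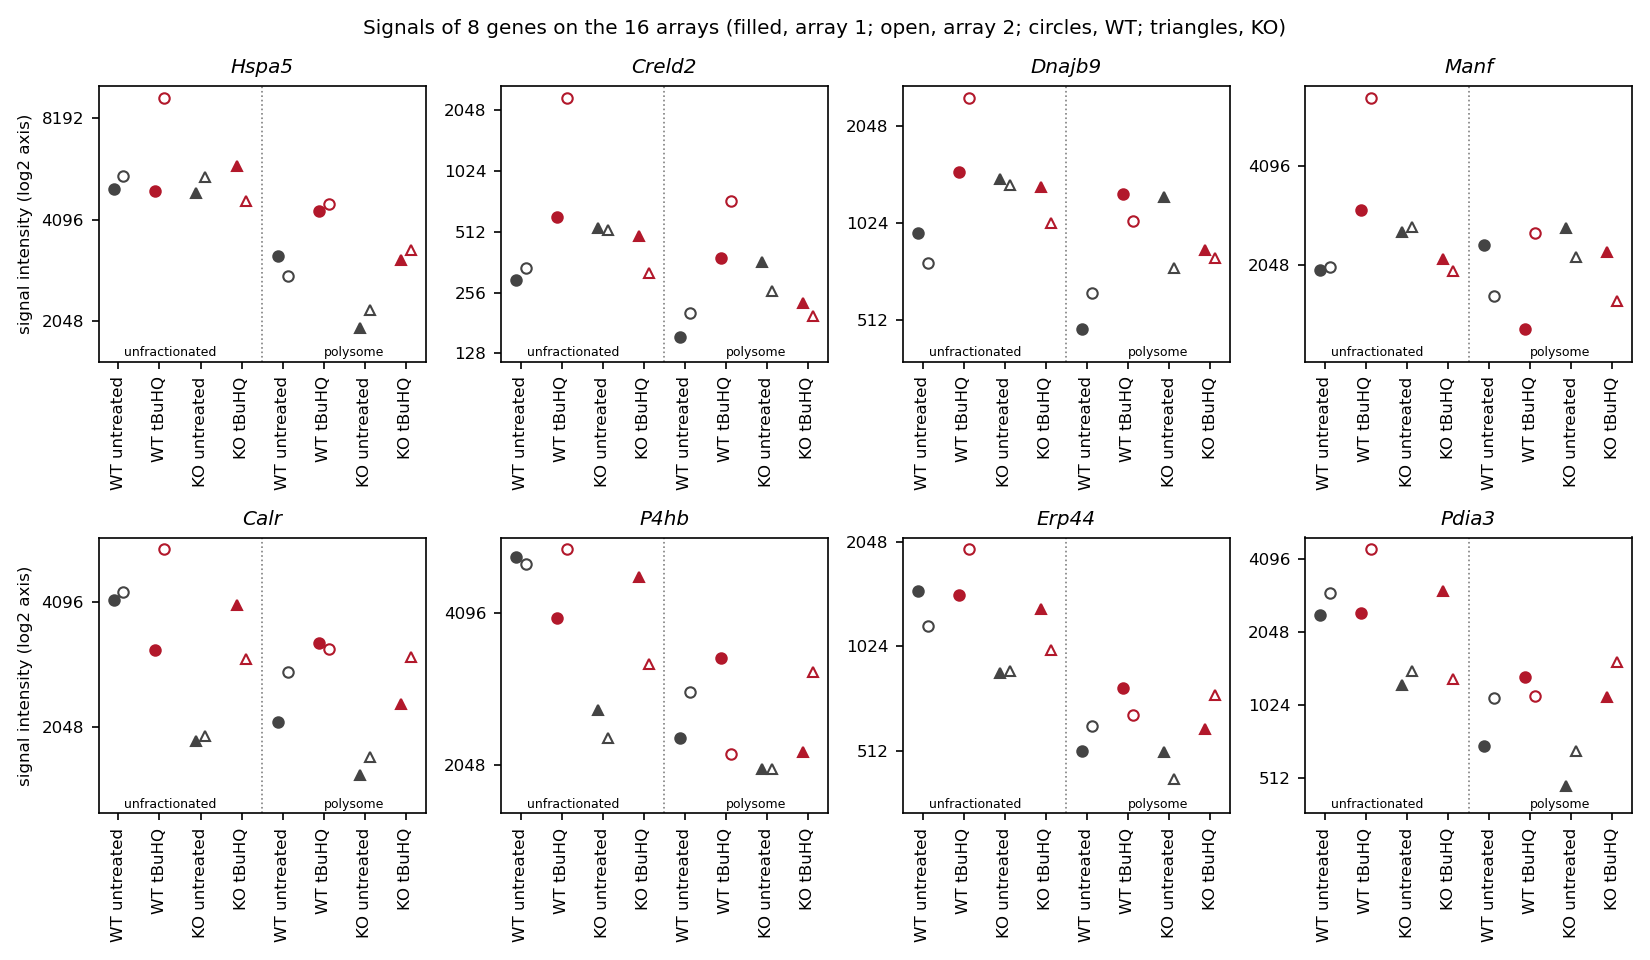
Signal intensity (log2 axis) of 8 genes on each array, by group: filled symbols are the first array and open symbols the second, circles wild-type and triangles knockout, red tBuHQ and dark untreated, with unfractionated groups left and polysome groups right of the dotted line. Creld2 and Manf peak on the second wild-type tBuHQ unfractionated array at 2345 and 6652, and Erp44 lies at 424 to 774 on the polysome and 855 to 1950 on the unfractionated arrays.

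Between the genotypes without tBuHQ, 6 of the 32 genes were lower in knockout unfractionated RNA and none was higher. They were the lectin chaperones Calr and Canx, the disulfide isomerases P4hb and Txndc5, the HSP70 family member Hspa13 and the J-domain reductase Dnajc10. The count is 18.75% of the members, beside 6.27% of all genes called lower and 0.716% called higher (6.99% in all), and 18 had an unadjusted p under 0.05 against 24.3% of all genes. The median over the members was -0.80 (all genes -0.03), 28 of 32 lay below 0, and for 23 both knockout arrays lay below both wild-type arrays (33.2% of all genes), while for 4 both lay above (29.9%).

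Calr had signals of 4132 and 4316 in the wild-type and 1892 and 1954 in the knockout (-1.13 ± 0.26, limma adjusted p = 0.0199). Canx had 2122 and 2104 in the wild-type and 924 and 999 in the knockout (-1.12 ± 0.29, adjusted p = 0.0321). Both of calnexin's other probe sets were called lower too, at -1.14 and -1.90, and both of calreticulin's at -1.22 and -1.23.

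P4hb, the first protein disulfide isomerase described and a subunit of collagen prolyl hydroxylase, had 5306 and 5134 in the wild-type and 2636 and 2314 in the knockout (-1.07 ± 0.27, limma adjusted p = 0.0298). Txndc5 had 568 and 634 in the wild-type and 234 and 229 in the knockout (-1.32 ± 0.38, adjusted p = 0.0478). Hspa13 had 375 and 307 in the wild-type and 146 and 144 in the knockout (-1.14 ± 0.29, adjusted p = 0.0286). In these genes the 2 arrays of a group lay close together and the groups were well apart. Dnajc10 (ERdj5), which reduces disulfides of proteins bound for degradation, had 204 and 204 in the wild-type and 84.2 and 128 in the knockout (-0.87 ± 0.25, adjusted p = 0.0461).

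Genes of similar size that did not pass were Uggt1 (-1.45 ± 0.44, limma adjusted p = 0.0581), Dnajc3 (-1.21 ± 0.44, adjusted p = 0.115), Ero1lb (-1.15 ± 0.36, adjusted p = 0.0673) and Pdia3 (-1.01 ± 0.38, adjusted p = 0.117). Uggt1 had 289 and 352 in the wild-type and 109 and 105 in the knockout. Dnajc3 had 2376 and 2448 in the wild-type and 921 and 1168 in the knockout, and 2 of its 4 other probe sets were called lower. Hspa5 did not follow them, with 5039 and 5518 in the wild-type and 4914 and 5468 in the knockout (-0.02 ± 0.25). The genes above 0 were Creld2 (296 and 338 against 534 and 523, 0.71 ± 0.46), Dnajb9 (958 and 771 against 1406 and 1346, 0.67 ± 0.30), Fkbp11 (0.65 ± 0.33) and Manf (0.40 ± 0.35), and none of these passed. These are the same 4 genes that had the largest wild-type tBuHQ increases, and the comparisons share the untreated wild-type arrays.

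Other genes of the ER were called lower as well. Of 44 genes of translocation, glycosylation and degradation, 12 were lower, among them Edem3 (-1.70), Sel1l (-1.46), Stt3b (-1.36) and Sec61a1 (-1.32), and none was higher, with a median of -0.57. Of 12 sensors and transcription factors, Ern1 (-1.89) and Creb3l2 (-1.14) were lower and Ddit3 was higher (1.35). Herpud1 had 1.05 (limma adjusted p = 0.0558), Atf4 0.14 (0.782) and Xbp1 -0.42 (0.435). Of 20 heat shock chaperones of other compartments, 4 were higher, Hspa1b (1.27), Hsph1 (1.04), Dnaja1 (0.87) and Hspa8 (0.86). Of 23 plasma proteins, 4 were lower (Apob, Cp, Itih1 and Itih3, from -2.52 to -0.76).

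Array and cell composition moved with this comparison. Both untreated wild-type arrays are among the 3 that stood apart, so the comparison without them cannot be made. The first knockout tBuHQ array, the other of the 3, had 4025 for Calr, 4832 for P4hb and 1839 for Canx, near the untreated wild-type arrays, while the second had 2978, 3241 and 1371. For Dnajc10, Uggt1 and Txndc5 all 3 arrays lay above the other 5, as for 17.1% of all genes. Of 8 stellate markers 5 were called lower, of 11 endothelial markers 3, of 12 macrophage markers 1 and of 10 hepatocyte markers 1, with stellate sums of 4285 and 4047 in the wild-type and 1642 and 1792 in the knockout. Their part in the result was not tested. The pancreatic sum was 220 and 177 in the wild-type and 3650 and 264 in the knockout. Leaving out any 1 of the 4 arrays left none of the 6 called (adjusted p from 0.0786 to 0.34), while the median of the 32 stayed between -0.82 and -0.67. None was called without the 4 arrays of high pancreatic sums either, at -1.11 for Calr (adjusted p = 0.116). Quantile normalization left 3. With no filter on low signals Dnajc10 and Txndc5 lost their calls (limma adjusted p = 0.0772 and 0.0681). With the mean of all probe sets Hspa13 and Dnajc10 did (0.156 and 0.088). Dnajc10 and Txndc5 also lost theirs with the replicate block as a fixed term (0.055 and 0.0522).

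**Figure D4:**
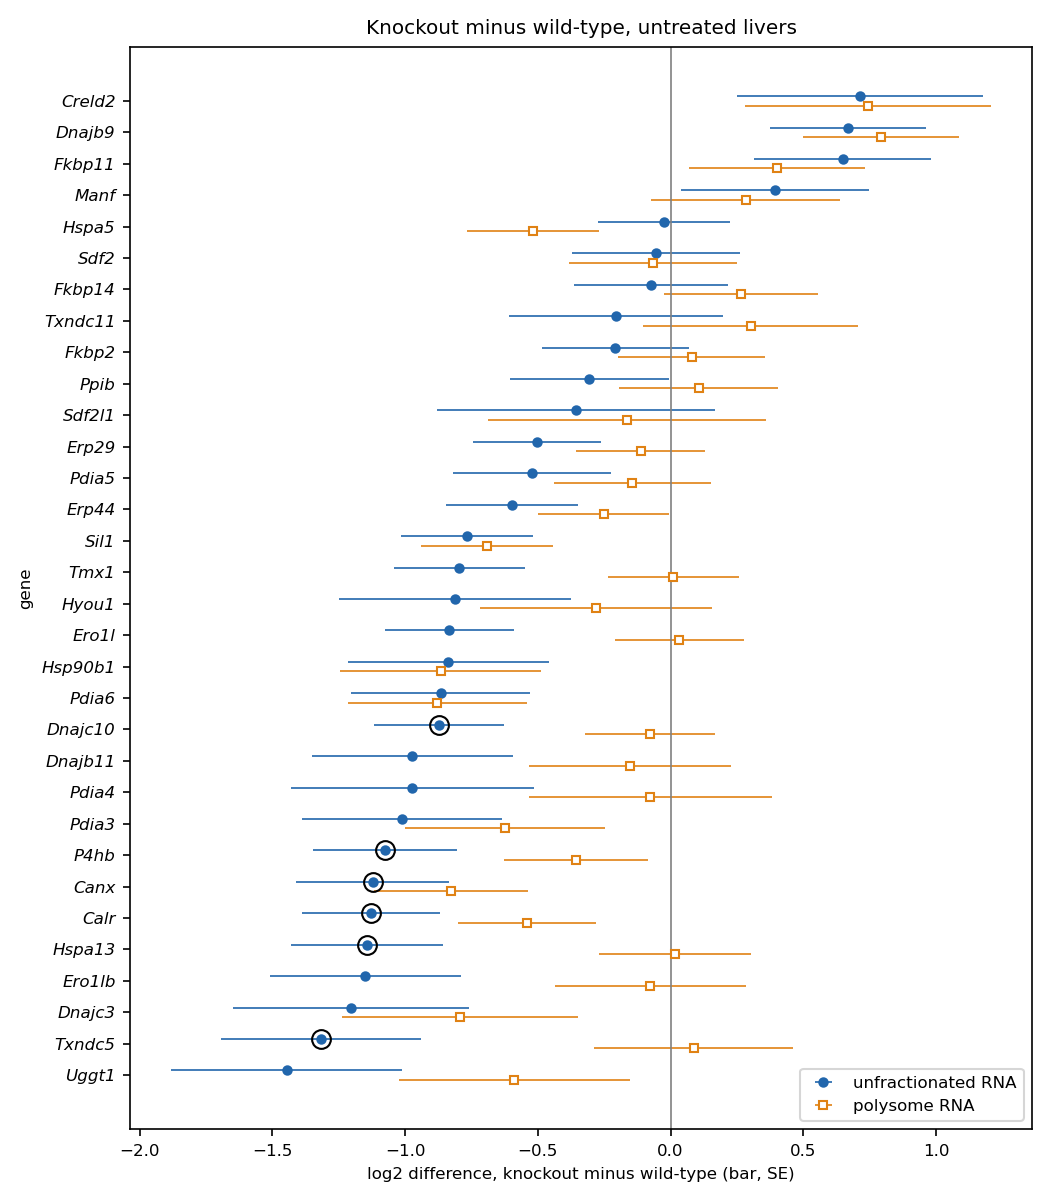
Log2 difference between knockout and wild-type untreated livers for the 32 genes, with its SE, in unfractionated RNA (filled circles, black rings on the 6 called genes) and in polysome RNA (open squares). The median lies at -0.80 in unfractionated and at -0.10 in polysome RNA, and Creld2, Dnajb9, Fkbp11 and Manf lie above 0 in both.

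In untreated polysome RNA no member passed the genotype test, where 0.00823% of all genes did, and 5 had an unadjusted p under 0.05 against 6.63% of all genes. The median was -0.10, with 20 of 32 below 0. Calr had 2109 and 2772 in the wild-type and 1574 and 1740 in the knockout (-0.54 ± 0.26), and Canx had 1462 and 843 against 647 and 593 (-0.83 ± 0.29, limma adjusted p = 0.566). Hspa13 had 154 and 191 against 170 and 179 (0.02 ± 0.29), and Txndc5 377 and 353 against 382 and 395 (0.09 ± 0.38). Whether the genotype difference itself differs between the fractions was not tested. Pdia6 and Hsp90b1 had nearly the same difference in both, -0.87 and -0.84 in unfractionated and -0.88 and -0.87 in polysome RNA. The polysome value of Hsp90b1 rested mainly on the first knockout array, with 2516 and 2940 in the wild-type and 884 and 2486 in the knockout.

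With tBuHQ no member passed the genotype test in unfractionated RNA, where 0.00823% of all genes did, or in polysome RNA, where the share was also 0.00823%. At an unadjusted p under 0.05 there were 7 and 3 members, against 6.92% and 8.87% of all genes. Creld2 had 608 and 2345 in wild-type and 489 and 318 in knockout unfractionated RNA (-1.56 ± 0.46, limma adjusted p = 0.504) and 379 and 722 against 228 and 196 in polysome RNA (-1.25 ± 0.46, adjusted p = 0.467). It passed in both fractions without the 4 arrays of high pancreatic sums (-2.52, adjusted p = 0.0425, and -1.70, adjusted p = 0.027), where 1 wild-type array is left in each. Hspa13 had 468 and 507 against 155 and 214 in polysome RNA (-1.34 ± 0.29, adjusted p = 0.395). Without the first wild-type tBuHQ polysome array, Hspa13 (-1.40, adjusted p = 0.0394), Dnajc3 (1.52, 0.0275) and Txndc5 (1.55, 0.0131) were called there. Over treatments and fractions none of the 32 passed (0.156% of all genes called, 16 members at an unadjusted p under 0.05 against 12.1%), with a median of -0.35 and 29 below 0. Hspa13 was nearest (-0.70 ± 0.14, adjusted p = 0.0763), and it was called without the first knockout tBuHQ unfractionated array (-0.79, adjusted p = 0.021), as was Pdia6 (-0.74, adjusted p = 0.0464), and without the first wild-type tBuHQ polysome array (-0.72, adjusted p = 0.0326).

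Between the fractions, 17 of the 32 genes were lower in polysome than in unfractionated RNA, and 15 did not pass the test. Over the 4 combinations of genotype and treatment, none of the 32 was called higher, beside 11.8% of all genes called lower and 14.7% called higher. The median difference was -0.51 (all genes -0.02), and 30 of 32 lay below 0. All 17 called genes lay below 0 in each of the 4 combinations. Equal amounts of RNA were labelled and arrays were scaled alike, so these are shares of each RNA preparation and not amounts per liver. The 75th percentile of signal was 95.9 to 108.0 on the polysome and 83.7 to 114.2 on the unfractionated arrays. Quantile normalization was run only within each fraction, so the part of such differences in this result was not tested.

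The disulfide isomerases held the largest differences, with 6 of 10 called. Erp44, which retains immature proteins and Ero1 in the early secretory pathway, had 855 to 1950 on the 8 unfractionated arrays, with a median of 1240, and 424 to 774 on the 8 polysome arrays, with a median of 596. The 2 sets of 8 arrays did not overlap, and the difference was -1.02 ± 0.12 (limma adjusted p = 4.52e-05). Erp29, a relative without the catalytic cysteine pair, also had no overlap, with 296 to 616 against 172 to 237 (-0.92 ± 0.12, adjusted p = 8.25e-05). Hspa5 was the other gene with no overlap, 4664 to 9414 against 1957 to 4561 (-0.86 ± 0.13, adjusted p = 0.000181), and 1.44% of all genes lay so. Pdia3 had 1238 to 4496 in unfractionated and 476 to 1537 in polysome RNA (-1.21 ± 0.19, adjusted p = 0.000289).

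Of the HSP70 and HSP90 group, Hspa5, Hsp90b1 (-0.85 ± 0.19, limma adjusted p = 0.0039) and Sil1, a nucleotide exchange factor of BiP (-0.57 ± 0.12, adjusted p = 0.00348), were called, and Hyou1 and Hspa13 were not. Of the J-domain group, Dnajb11 (ERdj3), which binds unfolded clients for BiP, had -0.70, Dnajb9 -0.60 and Sdf2 -0.67, and all 3 were called. Both lectin chaperones were called, Canx at -0.55 and Calr at -0.44. Of the isomerases, Pdia5 had -0.87, Pdia6 -0.75 and P4hb -0.68, and of the prolyl isomerases Ppib had -0.77 and Fkbp11 -0.50. Creld2 had -0.89 (adjusted p = 0.0105). For some members the mean over the 4 combinations lay near 0 while single combinations lay on both sides of it, and none of these single differences passed. Dnajc10 had 84.2 to 204.3 in unfractionated and 135 to 251 in polysome RNA (0.08 ± 0.12), and Ero1lb had 323 to 946 and 415 to 827 (-0.01 ± 0.18). The means of Txndc11 (0.03), Ero1l (-0.04) and Hspa13 (-0.05) also lay near 0. In untreated wild-type liver all 5 had both polysome arrays below both unfractionated ones, by -0.44 for Dnajc10, -0.69 for Ero1lb, -0.65 for Ero1l, -0.55 for Txndc11 and -0.92 for Hspa13. In untreated knockout liver both polysome arrays lay above for Dnajc10 (0.35), Ero1lb (0.38), Ero1l (0.22) and Hspa13 (0.24). With tBuHQ in the wild-type Hspa13 had 227 and 358 in unfractionated and 468 and 507 in polysome RNA (0.74 ± 0.29, limma adjusted p = 0.0956). Among the 17 called genes, Fkbp11 lost its call in 10 of 16 omissions of 1 array and Calr in 4.

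**Figure D5:**
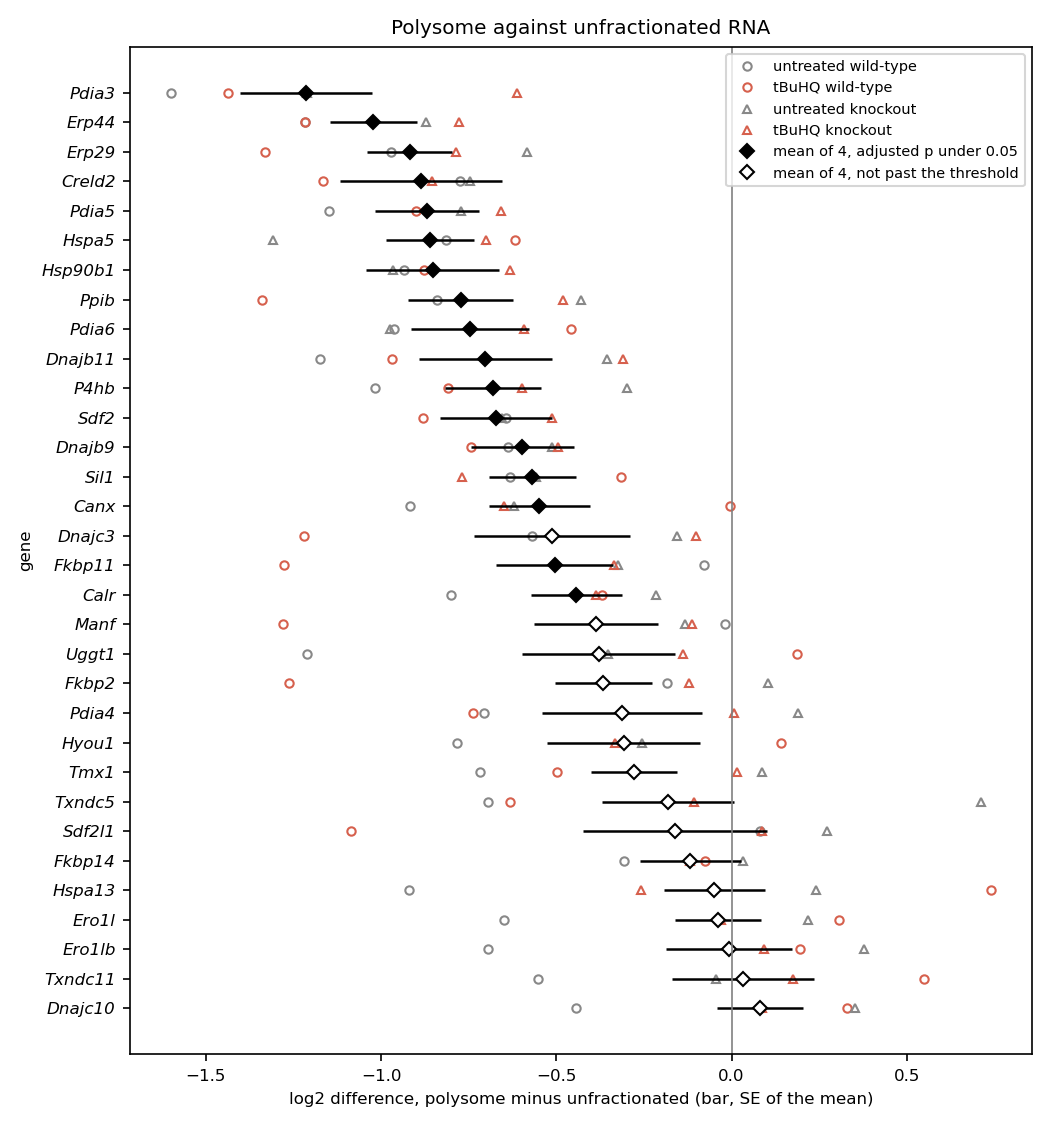
Log2 difference between polysome and unfractionated RNA for the 32 genes: the mean over genotypes and treatments with its SE, as diamonds filled for the 17 called genes, and the 4 single comparisons as small open circles (wild-type) and triangles (knockout), red with tBuHQ. Pdia3 and Erp44 lie farthest below 0, at -1.21 and -1.02, and the oxidases Ero1l and Ero1lb lie at -0.04 and -0.01.

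Within single groups the spread was wider and fewer genes passed. In untreated wild-type liver Erp44 was called (1478 and 1168 in unfractionated against 512 and 603 in polysome RNA, -1.22 ± 0.25, limma adjusted p = 0.0399), where 0.634% of all genes were called lower, and for 28 of the 32 both polysome arrays lay below both unfractionated ones (23.6% of all genes). Its call was lost without any 1 of the 4 arrays. In wild-type liver with tBuHQ 7 were called, Erp29, Erp44, Fkbp2, Ppib, Fkbp11, Pdia3 and Manf, where 4.85% of all genes were called lower. Manf had 3010 and 6652 in unfractionated and 1308 and 2562 in polysome RNA there (-1.28 ± 0.35, adjusted p = 0.0238). Only Erp29 was called without the second unfractionated array, and 10 genes were called without the first. Fkbp11 was also lost without the first unfractionated (adjusted p = 0.0751) or the first polysome array (0.115), Manf without the first polysome array (0.16) and Pdia3 without the second (0.0594).

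In untreated knockout liver Hspa5 and Erp44 were called, where 3.56% of all genes were called lower. Hspa5 had 4914 and 5468 in unfractionated and 1957 and 2215 in polysome RNA (-1.31 ± 0.25, limma adjusted p = 0.00617). Its call was lost without the second unfractionated (adjusted p = 0.0646) or the second polysome array (0.0525), and without the 4 arrays of high pancreatic sums (0.0846). Erp44 was lost under each of the 4 omissions (0.094 to 0.255). In knockout liver with tBuHQ none passed with limma, where 0.469% of all genes were called lower, and 7 had an unadjusted p under 0.05 against 13.4% of all genes. Hspa5 had 5910 and 4664 against 3111 and 3341 there.

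Other ER genes and secreted proteins were also lower in polysome RNA. Of 23 plasma proteins 20 were called lower (median -0.52), and of 44 genes of translocation, glycosylation and degradation 16 were lower, among them Sec63 (-0.91) and the oligosaccharyltransferase subunit Rpn1 (-0.85), and Ube2g2 was higher (0.64). Of 20 heat shock chaperones 4 were lower (median -0.20). Ddit3 (-0.68 ± 0.16, limma adjusted p = 0.00634) and Herpud1 (-0.51 ± 0.16, adjusted p = 0.0247) fell and Creb3l2 rose (0.91 ± 0.15, adjusted p = 0.000356), while Atf4 had 0.34 (adjusted p = 0.0642) and Xbp1 -0.36 (0.108). Markers of other cells moved with the fraction: 11 of 12 macrophage markers (median -1.30), 5 of 8 stellate, 4 of 11 endothelial and 6 of 10 hepatocyte markers were called lower, and 1 hepatocyte marker, Hnf4a, was called higher (0.85 ± 0.14, adjusted p = 0.000492). The summed macrophage signal was 3758 to 6201 on the unfractionated and 1282 to 1966 on the polysome arrays. Their part in the result was not tested.

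Members with several probe sets did not always agree. Of 30 further probe sets, 19 had the sign of the chosen one for the fraction difference. For Pdia3 the second probe set had -0.18, for Dnajc3 the sets ran from -0.51 to 0.48, and the second set of Ero1lb had -0.67 (adjusted p = 0.0406). For the untreated genotype difference 25 of the 30 had the same sign, and for the wild-type tBuHQ difference 22.

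The 9 genes with an ERSE or ERSE-II were set beside the 18 whose window holds neither, with no test. In untreated unfractionated RNA the median genotype difference was -0.97 with the element and -0.56 without it. The median tBuHQ difference was 0.14 and 0.28 in the wild-type and 0.57 and 0.40 in the knockout. The median polysome difference over all groups was -0.70 and -0.37. The ranges overlapped in each of these comparisons. Within the genes that hold an ERSE, Creld2 had a wild-type tBuHQ difference of 1.87 and Canx one of -0.56.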

How the data were processed

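Liver RNA was measured on 16 Affymetrix arrays in 8 groups of 2, grouped by the sample titles. The authors deposited signal intensity per probe set, on a linear scale, for each array, and every array had the same trimmed mean of 150. They also deposited a table of z score values, which was used only to check the labels. Which software made them is not given in the sources used.

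Probe sets were named by the platform annotation, with symbols updated through Entrez identifiers (34958 of 45101 had exactly 1 symbol, 932 several and 9211 none). From the intensities, log2(signal + 16) was computed, each gene was given its probe set with the highest mean, and genes under the 40th percentile of the mean log2 signal of named probe sets were left out. A model of 8 group means was fitted to 12148 genes with limma 3.58.1 (R 4.3.3; lmFit, eBayes with trend, Benjamini-Hochberg adjustment), with 19 contrasts and 8 residual degrees of freedom. The fit was tested on simulated data. All 32 members, Eif2ak3, Atf4, Ddit3, Xbp1 and Herpud1 could be named, and other listed genes where they were called. The members and lists were chosen with earlier results of these data known. Arrays of 1 group are described as biological replicates, but the labels do not say whether pools share a perfusion day. The number of arrays limits the precision. Alternatives were another pseudocount, filter, normalization and summary of probe sets, a replicate block, and leaving out arrays.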

Additional observations from a re-analysis of the deposited data

How the results depend on the processing

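No called gene changed sign under any alternative, while medians of the 32 genes crossed 0 where the ranges below show it. A replicate number was not treated as a pairing, since the labels do not say that it marks a shared pool. The same-numbered arrays of the 2 fractions correlated at 0.0827, 0.103, 0.327 and 0.0822 in their deviations. Low correlations cannot exclude shared pools, and the high pancreatic sums lay on the same-numbered arrays of both fractions. They were 4872 and 3364 for wild-type tBuHQ, and 3650 and 3987 for untreated knockout. These numbers are those of the titles. By the column names of the z score table, the untreated knockout polysome array with 3987 would carry the other number. If fractions share pools, the main fit takes linked arrays as independent. The replicate block moved no count of called members by over 1.5 times other than those given here.

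Of genes called for tBuHQ in wild-type unfractionated RNA (2), 0 were called with no filter on low signals or with the mean of all probe sets, 1 with quantile normalization and 1 with the replicate block as a fixed term. Without the 4 arrays with high pancreatic markers (chosen after seeing the data) there was 1, and the median of the 32 was 0.48. In the same setting 1 was called for tBuHQ in wild-type polysome RNA, 1 for genotype with tBuHQ in each fraction (median -0.70 in unfractionated RNA), and 0 for genotype without tBuHQ and for polysome RNA of untreated knockout. There the medians were 0.0029 for the genotype difference in the tBuHQ effect in unfractionated RNA, -1.15 for polysome RNA of wild-type with tBuHQ, and -0.36 for the fraction difference in the wild-type tBuHQ effect. The genotype difference in the tBuHQ effect gave 1 call with a pseudocount of 64 and 1 with the mean of all probe sets. The untreated genotype difference gave 3 calls with quantile normalization. Polysome RNA of untreated wild-type gave 3 calls with quantile normalization and 3 with the random replicate block, and 0 with the mean of all probe sets or the fixed replicate block, and that of untreated knockout gave 1 with the mean of all probe sets. Eif2ak3 had -0.56 (limma adjusted p = 0.105) with the mean of all probe sets and -1.19 (0.087) without the 4 arrays.

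With any 1 array left out, the lone array of its group is assumed to vary like the others. For tBuHQ, 0 to 1 members were called in wild-type unfractionated RNA (median -0.23 to 0.48), 0 in knockout (0.16 to 0.81), 0 to 2 in wild-type polysome RNA (0.15 to 0.50), 0 in knockout (0.24 to 0.54) and 0 over all (0.27 to 0.41). For genotype, 0 were called in untreated unfractionated RNA (-0.82 to -0.67), 0 in polysome RNA (-0.25 to 0.02), 0 with tBuHQ (-0.70 to -0.023), 0 to 3 with tBuHQ in polysome RNA (-0.22 to -0.07) and 0 to 2 over all (-0.42 to -0.25). The genotype difference in the tBuHQ effect gave 0 to 4 (0.0151 to 0.81) and, in polysome RNA, 0 to 1 (0.03 to 0.27). For polysome against unfractionated RNA, 15 to 19 were called over all (-0.59 to -0.45), 0 in untreated wild-type (-0.84 to -0.65), 1 to 10 in wild-type with tBuHQ (-1.06 to -0.31), 0 to 1 in untreated knockout (-0.39 to -0.28) and 0 in knockout with tBuHQ (-0.68 to -0.0847). The fraction difference in the tBuHQ effect gave 0 to 2 in the wild-type (-0.18 to 0.46) and 0 in the knockout (-0.31 to 0.19). Eif2ak3 ran from -1.43 to -1.19. Of the 17 genes called lower over all polysome comparisons, Fkbp11 lost its call in 10 of 16 omissions and Calr in 4. The cause of these changes was not tested.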
